A study of Mus musculus with 30 samples.

Results

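The genes described here are 9 members of the fibroblast growth factor (FGF) system in mouse heart cells: the ligands Fgf2, Fgf7, Fgf9, Fgf10, Fgf18 and Fgf21 and the receptors Fgfr1, Fgfr2 and Fgfr3. They were taken by gene symbol from every bulk RNA-seq library and both single-cell libraries, and all 9 were found, out of 49492 to 56691 genes in the 4 bulk count tables and 32285 genes in the single-cell matrices. The study asked how the age of the donor mouse bears on the conversion of cardiac fibroblasts into induced cardiomyocyte-like cells (iCMs) by MGT, a cocktail of the transcription factors Mef2c, Gata4 and Tbx5, and what the orphan nuclear receptor Nr4a3 contributes. The cells were primary fibroblasts from wild-type mouse hearts. Bulk libraries came in duplicate from 14 groups. Untreated fibroblasts cultured for 3 days came from neonatal (postnatal day 1 to 3), 3-month, 12-month and 24-month mice. Neonatal, 3-month and 18-month fibroblasts given MGT, or LacZ (a bacterial enzyme) as the control, were collected at day 3. Neonatal fibroblasts over-expressing Nr4a3 (OENr4a3) or carrying the control vector (OECtrl) were collected at day 10 by their sample titles, and carried no MGT label. Fibroblasts from 3-month mice given MGT with a short hairpin against Nr4a3 (shNr4a3) or a non-targeting hairpin (shNT) were collected at day 7. One 10x single-cell library was made from 24-month and one from neonatal MGT-treated cells.

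FGF ligands bind receptor tyrosine kinases on the cell surface together with heparan sulfate, and the receptors signal mainly through the RAS-ERK pathway, with Sprouty and Spred proteins as feedback brakes. Fgf2 is a broadly acting ligand that activates mesenchymal FGFR1 and has long been studied in heart fibroblasts. Fgf7 and Fgf10 belong to one subfamily, are made by mesenchyme and act chiefly on the epithelial splice form of FGFR2. Fgf9 is secreted by the epicardium of the developing heart, and Fgf18 is best known from bone and lung development. Fgf21 is an endocrine ligand that needs the coreceptor beta-klotho (Klb) and is induced under nutrient and mitochondrial stress. Fgfr1 is the main receptor of fibroblasts, while Fgfr2 and Fgfr3 are best known from epithelia and cartilage.

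Total counts were 17283764 to 22311330 per library for untreated fibroblasts, 14489836 to 18796708 for the MGT and LacZ cells, 14275501 to 18441428 for the over-expression cells and 39746879 to 43448379 for the knockdown cells. The labels do not tie replicates to separate animals or cultures, so p-values measure the spread between these libraries, and in bulk RNA fewer cells of a type cannot be told apart from less RNA per cell. All 8 fibroblast marker genes averaged at least 1 CPM (counts per 1000000 counts of the library) in all 14 groups. Bulk CPM values use normalised library sizes, apart from those of Xist, which use total counts. In untreated fibroblasts the summed level of 8 epicardial and mesothelial markers was 1.29 to 6.34 CPM in libraries of adult mice, where Muc16 was at 0 at all 3 ages, and 164 to 167 CPM in neonatal ones. Summed cardiomyocyte markers were likewise 20.1 to 48.1 CPM in adult and 1108 to 1197 CPM in neonatal libraries. Endothelial markers were 135 to 259 CPM in adult and 966 to 979 CPM in neonatal libraries. Pericyte and smooth muscle markers were 102 to 206 CPM in adult and 909 to 912 CPM in neonatal libraries. Schwann markers went the other way, at 24.1 to 28.8 CPM in adult and 3.47 to 4.64 CPM in neonatal libraries. Xist, transcribed in female cells, was 1294 to 1307 CPM in neonatal, 0.289 to 0.476 CPM in 3- and 12-month and 761 to 813 CPM in 24-month untreated libraries; the part of sex and of other cells in the results was not tested.

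On the GRCm38 assembly the members lie on separate chromosomes apart from Fgf21 and Fgfr2, which are both on chromosome 7. Fgf2 spans chr3:37348346-37410108 on the plus strand, Fgf7 chr2:126034658-126091185 on the plus strand, Fgf9 chr14:58070547-58112720 on the plus strand and Fgf10 chr13:118669791-118792115 on the plus strand. Fgf18 spans chr11:33117430-33147400 on the minus strand and Fgf21 chr7:45613886-45615490 on the minus strand. Fgfr1 spans chr8:25513654-25575718 on the plus strand, Fgfr2 chr7:130162451-133123350 on the minus strand and Fgfr3 chr5:33721674-33737068 on the plus strand. The Fgfr2 span is that of the GENCODE annotation and overlaps 69 other annotated genes. It begins upstream of the RefSeq start of Fgfr2, as the bases just before that start, chr7:130266809-130267058, lie inside it. Some exonic bases are shared with other annotated genes. For Fgf2 these were 895 of 6782 bases, most of them with the antisense gene Nudt6, for Fgfr3 998 of 7158 and for Fgfr2 314 of 10328. The Fgfr2 bases are shared with Ctbp2 on the same strand. Because the strand setting of the counting is not given in the sources used here, reads from a gene and its antisense partner cannot be told apart. Fgf7, Fgf9, Fgf18 and Fgf21 share no exonic base with another gene.

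The 250 bases before the RefSeq start are shown for 3 ligands, Fgf21, Fgf7 and Fgf10. Fgf21 was the member with the largest change after Nr4a3 knockdown. Fgf7 and Fgf10 are sister ligands that were both higher in adult than in neonatal fibroblasts. The sequences are from RefSeq (GRCm38.p6), 5′ to 3′ on the strand of the gene: Fgf21 at chr7:45615491-45615740 (minus), Fgf7 at chr2:126034408-126034657 (plus) and Fgf10 at chr13:118714449-118714698 (plus). The Fgf10 window lies inside the GENCODE span given for that gene, which begins upstream of the RefSeq start. Capitals mark a match to the C/EBP-ATF element described under them.
Fgf21: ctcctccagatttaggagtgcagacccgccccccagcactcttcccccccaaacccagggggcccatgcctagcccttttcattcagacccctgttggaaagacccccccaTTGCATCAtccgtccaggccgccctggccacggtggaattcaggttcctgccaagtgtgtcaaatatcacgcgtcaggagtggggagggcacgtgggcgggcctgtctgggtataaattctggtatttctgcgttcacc
Fgf7: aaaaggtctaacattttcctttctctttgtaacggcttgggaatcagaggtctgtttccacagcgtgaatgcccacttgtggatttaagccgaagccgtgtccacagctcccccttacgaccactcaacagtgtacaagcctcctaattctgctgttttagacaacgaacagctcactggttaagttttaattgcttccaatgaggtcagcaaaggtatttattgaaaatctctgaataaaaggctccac
Fgf10: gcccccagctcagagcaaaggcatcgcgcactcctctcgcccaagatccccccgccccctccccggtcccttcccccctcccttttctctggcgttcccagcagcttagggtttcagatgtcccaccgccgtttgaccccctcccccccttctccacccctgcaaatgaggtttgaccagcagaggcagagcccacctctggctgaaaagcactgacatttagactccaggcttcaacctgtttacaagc
Short elements for 3 factor families, picked after the values were seen, were searched on both strands in these windows for the 8 members with a RefSeq promoter entry. The C/EBP-ATF element TGATGNAA, the class of site bound by the stress factor ATF4 with its partners, was in the Fgf21 window and in no other member's. It is on the opposite strand, where it reads TTGCATCA on the strand of the gene, 139 bases before the start. That element occurred in 3.45% of 32851 promoter windows of this length. NBRE, the monomer site of the Nr4a receptors (AAAGGTCA), was in no member's window and in 1.34% of all windows. The AP-1 element TGAGTCA was in no member's window and in 4.46% of all windows. A match is a description of letters and not a measured binding site.

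Fibroblasts of adult mice had far more RNA of 4 ligands (Fgf2, Fgf7, Fgf10 and Fgf18) than neonatal fibroblasts. They also had more RNA of the receptor Fgfr1, by a smaller factor, and less Fgf9 and Fgfr2. The changes ran in the same direction at 3, 12 and 24 months. Fgf2 rose 4.33-fold at 3 months, 7.46-fold at 12 months and 6.56-fold at 24 months, and Fgfr2 was 3.58-fold lower at 12 months and 4.30-fold lower at 24 months. Of 8 members tested, 8 were called at 3 months (6 higher, 2 lower), 7 at 12 months (5 higher, 2 lower) and 7 at 24 months (5 higher, 2 lower). Over all 16466 genes tested, 52.5%, 55.2% and 54.5% were called at 3, 12 and 24 months against neonatal cells, so a call by itself is common here; by direction, 28%, 29.7% and 27.9% were higher and 24.4%, 25.5% and 26.6% lower. The median log2 fold change of the tested members was 1.40, 1.71 and 1.84 at 3, 12 and 24 months, beside 0.01, 0.03 and -0.01 over all genes. As the members were chosen with earlier results of these data known, these and later medians are a description and not a test. Calls are from edgeR's quasi-likelihood test with Benjamini-Hochberg adjusted p under 0.05.

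Among the ligands, Fgf2 was at 51.3 and 50.6 CPM in the neonatal libraries, 226 and 216 CPM at 3 months, 369 and 392 CPM at 12 months and 349 and 320 CPM at 24 months. Every adult library lay above both neonatal ones, and the log2 fold change against neonatal cells was 2.11 ± 0.053 at 3 months, 2.90 ± 0.053 at 12 months and 2.71 ± 0.052 at 24 months (SE, n = 2 per group; edgeR adjusted p = 4.8e-26 at 3 months). Fgf2 was highest at 12 months. Fgf7 was at 6.29 and 7.56 CPM in neonatal libraries, 44.5 and 41.6 CPM at 3 months, 40.8 and 43.4 CPM at 12 months and 69.9 and 62.7 CPM at 24 months. It was 9.65-fold higher at 24 months than in neonatal cells (log2 3.27 ± 0.094), and its 3- and 12-month libraries overlapped. Fgf10, its sister ligand, had 0 and 1 counts in the neonatal libraries, 22 and 23 counts at 3 months, 88 and 111 at 12 months and 60 and 47 at 24 months. The ratio of its normalised counts to the neonatal ones was 40.6 at 3 months (exact 95% interval 6.93 to 1639.6), 206 at 12 months (36.6 to 8185) and 98.3 at 24 months (17.3 to 3918). These intervals use the summed counts of both libraries of a group and cover counting error only, not the spread between libraries. Fgf10 was a low-level transcript in adult fibroblasts and at the edge of detection in neonatal ones. Fgf18 was at 1.45 and 0.796 CPM in neonatal libraries, 4.09 and 4.46 CPM at 3 months, 7.05 and 5.87 CPM at 12 months and 6.61 and 8.51 CPM at 24 months, and all adult libraries lay above the neonatal ones (log2 1.88 ± 0.26, 2.47 ± 0.25 and 2.71 ± 0.24).

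The other ligands went the opposite way. Fgf9, the epicardial ligand, was at 5.02 and 4.83 CPM in neonatal libraries, 1.35 and 1.87 CPM at 3 months, 1.09 and 0.746 CPM at 12 months and 2.67 and 2.00 CPM at 24 months. Its log2 fold change against neonatal cells was -1.62 ± 0.24 at 3 months, -2.43 ± 0.28 at 12 months and -1.08 ± 0.23 at 24 months, with an edgeR adjusted p of 0.00015 for the last. Beside it, all 8 epicardial and mesothelial markers fell at 24 months, and their part in the difference was not tested. Fgf21 had 0 counts in all 6 adult libraries and 6 and 7 counts in the neonatal ones. It did not pass the filter on low counts. The neonatal level of Fgf21 was 4.80-fold a floor of 3 counts over the group at 3 months, 4.18-fold at 12 months and 4.72-fold at 24 months. These ratios leave out the counting error of the neonatal counts.

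**Figure D1:**
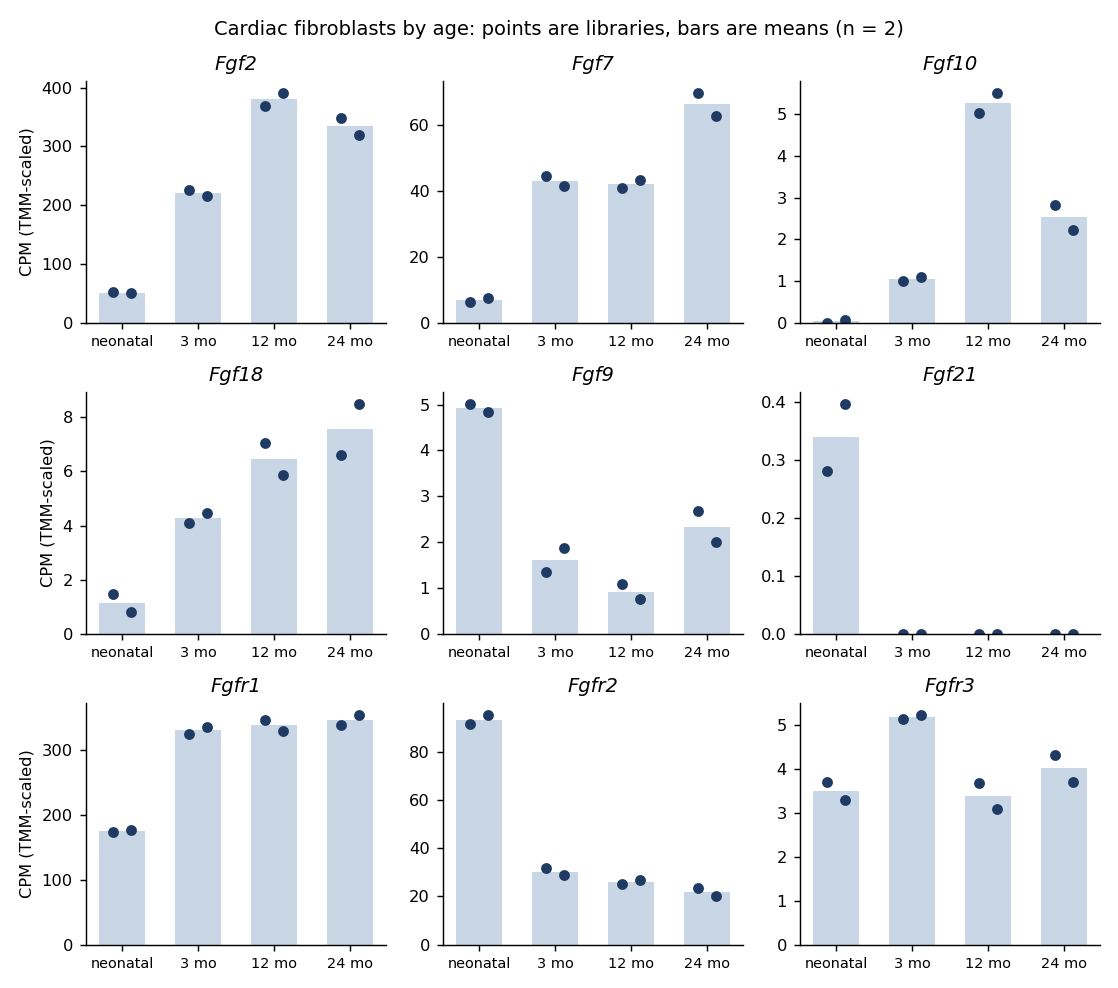
Levels of the 9 members in untreated cardiac fibroblasts at 4 ages, in CPM on a separate axis for each gene; points are libraries and bars are means (n = 2 per age). Fgf2, Fgf7, Fgf10, Fgf18 and Fgfr1 stand higher at all 3 adult ages than in neonatal cells, Fgf9 and Fgfr2 stand lower, and Fgf21 is at 0 in the adult libraries.

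The 3 receptors behaved differently from each other. Fgfr1 was at 174 and 177 CPM in neonatal libraries, 324 and 335 CPM at 3 months, 346 and 329 CPM at 12 months and 338 and 354 CPM at 24 months. It was 1.97-fold higher at 24 months than in neonatal cells (log2 0.98 ± 0.043; edgeR adjusted p = 2.6e-19), and none of the comparisons among adult ages called it. Fgfr2 was at 91.3 and 95.2 CPM in neonatal libraries, 31.8 and 28.8 CPM at 3 months, 25.3 and 26.7 CPM at 12 months and 23.4 and 20.004 CPM at 24 months. The log2 fold change was -1.62 ± 0.070, -1.84 ± 0.073 and -2.10 ± 0.073 at the 3 ages. Fgfr3 was low throughout, at 3.71 and 3.30 CPM in neonatal libraries, 5.13 and 5.22 CPM at 3 months, 3.67 and 3.08 CPM at 12 months and 4.32 and 3.71 CPM at 24 months. Its call at 3 months (log2 0.56 ± 0.19; edgeR adjusted p = 0.013) was lost with DESeq2 and without the second neonatal or the second 3-month library, with an adjusted p of up to 0.111. Its differences at 12 months (-0.06 ± 0.21) and 24 months (0.19 ± 0.20) were not called.

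Per kilobase of exon, Fgfr1 led the members in neonatal fibroblasts at 17.8 CPM per kb, followed by Fgfr2 at 9.03 and Fgf2 at 7.51. At 24 months Fgf2 led at 49.3 CPM per kb, ahead of Fgfr1 at 35.0 and Fgf7 at 20.4, while Fgfr2 stood at 2.10. Fgf2 and its receptor Fgfr1 stood at 32.5 and 33.4 CPM per kb at 3 months and at 56.1 and 34.2 CPM per kb at 12 months.

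Adult fibroblasts also differed among themselves, where 28.5% of genes were called between 12 and 3 months, 18.3% between 24 and 3 months and 18.9% between 24 and 12 months. Of the 8 tested members, 5 were called in each of these comparisons. Between 12 and 3 months, Fgf2 (log2 0.79 ± 0.045) and Fgf10 (2.33 ± 0.26) were higher at 12 months. The calls of Fgf18 (0.59 ± 0.19), Fgfr2 (-0.22 ± 0.080) and Fgfr3 (-0.62 ± 0.19) in that comparison were each lost with DESeq2 and without single libraries: for Fgf18 the first 3- or 12-month one, for Fgfr2 the first 3-month or either 12-month one, and for Fgfr3 the second 3- or 12-month one. The edgeR or DESeq2 adjusted p then reached 0.158 for Fgf18, 0.327 for Fgfr2 and 0.162 for Fgfr3. At 24 months, Fgf7 was higher than at 3 months (0.62 ± 0.069) and than at 12 months (0.65 ± 0.071). Fgf10 was lower at 24 than at 12 months (-1.07 ± 0.22; edgeR adjusted p = 0.00061) but higher than at 3 months (1.27 ± 0.29; adjusted p = 0.0013), so that its order was neonatal, 3, 24 and 12 months. Fgfr2 was lower at 24 than at 3 months (-0.48 ± 0.081), and Fgf2 (0.60) and Fgf18 (0.82 ± 0.18) were higher. Between 24 and 12 months, Fgf9 was higher (1.36 ± 0.31) and Fgf2 (-0.19 ± 0.045) and Fgfr2 (-0.26 ± 0.084) were lower at 24 months. Without the second 12-month library these 3 calls were lost, without the second 24-month library those of Fgf2 and Fgfr2 were lost, and that of Fgfr2 was also lost with DESeq2, with an adjusted p of up to 0.12 for Fgf2, 0.0599 for Fgf9 and 0.366 for Fgfr2.

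Around these members, the genes that shape and read FGF signals moved both ways between 24-month and neonatal fibroblasts. Of 12 other secreted FGF ligands 3 were tested and all fell: Fgf23 (log2 -1.17), Fgf1 (-1.45) and Fgf16 (-2.40). Of 10 tested heparan sulfate proteoglycans and carriers, which hold FGFs at the surface, 6 rose and 3 fell, and the smallest p-values belonged to Gpc3 (-5.06), Sdc2 (1.72), Sdc4 (1.31) and Gpc4 (-0.93). Among 9 heparan sulfate enzymes 6 rose and 3 fell, with the extracellular sulfatase Sulf1 at 1.18 and the sulfotransferase Hs6st2 at -1.13. The 9 feedback inhibitors split into 4 that rose, led by Spry2 (1.13), and 5 that fell, led by the ERK phosphatase Dusp6 (-0.84), Spry1 (-0.57) and Il17rd (-0.89), with a median of -0.19. Of 10 ERK target genes 3 rose and 6 fell, the leading ones being Dusp4 (-2.02), Phlda1 (1.5), Dusp5 (-1.45) and Egr1 (-0.41), with a median of -0.31. The median over all genes was -0.01, and 27.9% of them were called higher and 26.6% lower.

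In cells given MGT, the receptors parted from the LacZ cells at all 3 ages: Fgfr3 was higher and Fgfr2 lower. Fgf2 was higher with MGT at 3 and 18 months, Fgf10 at 3 months and Fgf9 at 18 months, while Fgf7 and Fgf18 were called at no age. MGT against LacZ called 7.51% of 16368 tested genes in neonatal cells, 17.4% in 3-month cells and 16.6% in 18-month cells. Of 8 tested members it called 3 (2 higher, 1 lower), 4 (3 higher, 1 lower) and 5 (4 higher, 1 lower), where 4.26%, 8.99% and 8.52% of all genes were higher and 3.24%, 8.39% and 8.05% lower at the 3 ages. Their median log2 fold change was 0.18, 0.05 and 0.35, beside -0.01, -0.01 and 0.01 over all genes. Of the cocktail, Mef2c RNA was higher by 3.51, 4.44 and 4.17 on the log2 scale in MGT cells at the 3 ages, Gata4 by 0.84, 0.98 and 1.06 and Tbx5 by 6.78, 8.15 and 8.798.

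Fgfr3 was at 5.68 and 6.30 CPM in neonatal MGT cells, against 1.94 and 1.71 CPM in neonatal LacZ cells. At 3 months it was at 7.00 and 7.38 CPM with MGT, against 1.09 and 1.82 CPM with LacZ, and at 18 months at 7.22 and 8.56 CPM with MGT, against 3.19 and 2.43 CPM with LacZ. The groups did not overlap at any age, and Fgfr3 was 3.28-fold, 4.88-fold and 2.80-fold higher with MGT (log2 1.71 ± 0.25, 2.29 ± 0.26 and 1.48 ± 0.24; edgeR adjusted p = 2.6e-05, 2.7e-07 and 5.5e-05). Fgfr2 was at 28.3 and 25.3 CPM in neonatal MGT cells, against 52.8 and 49.1 CPM in neonatal LacZ cells. At 3 months it was at 5.39 and 7.24 CPM with MGT, against 14.97 and 13.7 CPM with LacZ, and at 18 months at 9.10 and 8.87 CPM with MGT, against 13.2 and 17.9 CPM with LacZ. Every MGT library lay below its LacZ pair of the same age (log2 -0.93 ± 0.13, -1.19 ± 0.17 and -0.79 ± 0.16). Without the second 18-month LacZ library the 18-month call was lost (edgeR adjusted p = 0.0546). Fgfr1 was at 390 and 413 CPM in 18-month MGT cells, against 329 and 336 CPM in 18-month LacZ cells. That call (log2 0.27 ± 0.077; edgeR adjusted p = 0.014) was lost without either LacZ or the second MGT library (adjusted p up to 0.126), and at the younger ages Fgfr1 was not called (0.09 ± 0.077 and 0.10 ± 0.076).

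Fgf2 was at 397 and 439 CPM in 3-month MGT cells, against 301 and 280 CPM in LacZ cells, and at 394 and 368 CPM in 18-month MGT cells, against 257 and 259 CPM in LacZ cells. It was 1.44-fold and 1.48-fold higher with MGT (log2 0.52 ± 0.081 and 0.56 ± 0.081; edgeR adjusted p = 2.4e-05 and 1.4e-05). In neonatal cells Fgf2 was at 89.4 and 84.7 CPM with MGT, against 72.8 and 71.1 CPM with LacZ. That smaller difference (0.28 ± 0.085; edgeR adjusted p = 0.046) was called in 2 of 9 other settings, with an adjusted p of up to 0.33, and it was lost without any 1 of the 4 neonatal libraries. Fgf10 was at 25.4 and 26.8 CPM in 3-month MGT cells, against 15.2 and 14.3 CPM in LacZ cells (log2 0.82 ± 0.13; edgeR adjusted p = 3.4e-05). At 18 months it was at 25.5 and 26.9 CPM with MGT, against 25.4 and 28.7 CPM with LacZ, and the groups overlapped. Fgf9 had 20 and 16 counts in 18-month MGT cells, against 3 and 1 counts in LacZ cells (log2 3.16 ± 0.71; edgeR adjusted p = 0.0024). At 3 months it had 30 and 26 counts with MGT, against 14 and 48 counts with LacZ, a LacZ pair that spread around both MGT libraries.

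**Figure D2:**
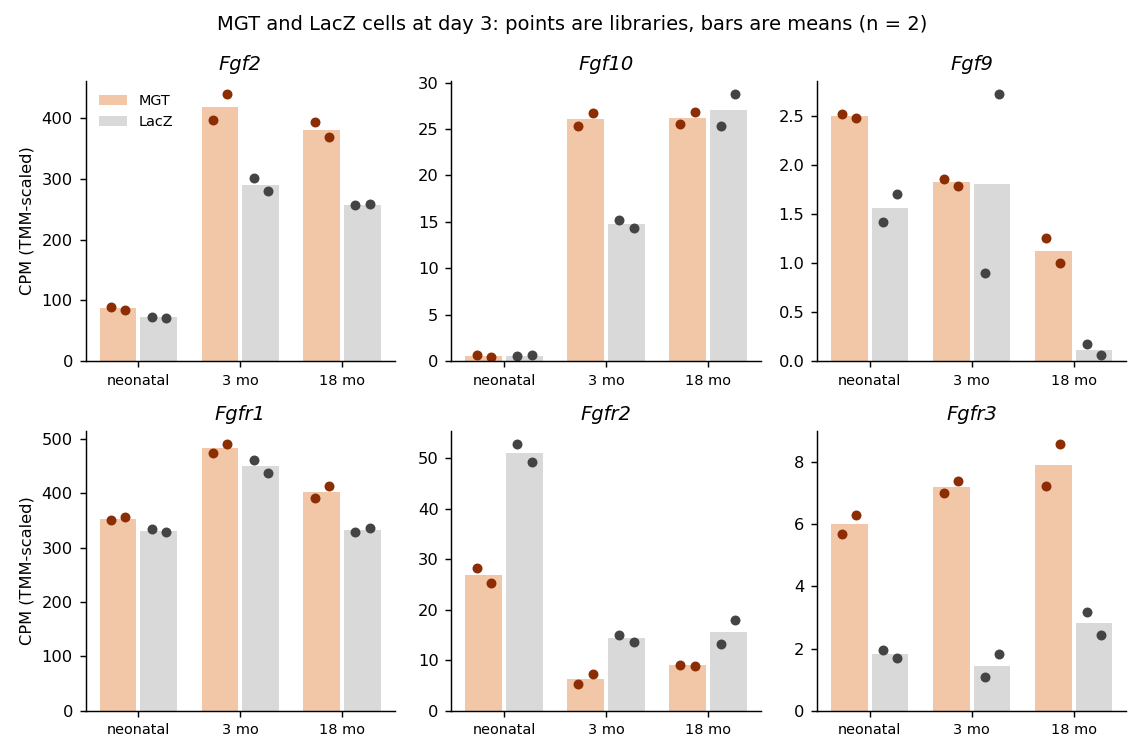
Levels in CPM of Fgf2, Fgf10, Fgf9, Fgfr1, Fgfr2 and Fgfr3 in MGT cells (left of each pair) and LacZ cells at neonatal, 3-month and 18-month age; points are libraries and bars are means (n = 2 per group). Fgfr3 is higher and Fgfr2 lower with MGT at each age, Fgf10 is higher with MGT at 3 months, and the 18-month LacZ libraries are lowest for Fgf9.

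Whether the MGT effect differed between ages was tested with interaction terms. Between 18 and 3 months, where 2.34% of all genes (383) were called and 159 to 1012 with single libraries left out, 2 of 8 members were called. The effect on Fgf10 was smaller at 18 months (difference of log2 fold changes -0.86 ± 0.18; edgeR adjusted p = 0.0066) and that on Fgf9 larger (3.16 ± 0.84; adjusted p = 0.043). The Fgf9 call rested on low counts and was kept in 4 of 12 other settings, with an adjusted p of up to 0.193, while that of Fgf10 was kept in all 12. Against neonatal cells, the effect at 3 months and at 18 months was called for 0 of 8 members with edgeR and 0 with DESeq2, although 2 and 3 members had an unadjusted edgeR p under 0.05; over all genes 3.7% and 2.82% were called.

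Adult and neonatal cells were also compared within the MGT and within the LacZ libraries, where markers of other cells and Xist differed as well. Summed epicardial and mesothelial markers were 8.70 to 9.26 CPM at 3 months and 13.7 to 14.9 CPM at 18 months in LacZ cells, against 678 to 738 CPM in neonatal ones, and 88.1 to 92.9 and 69.0 to 77.6 CPM in MGT cells, against 338 to 364 CPM in neonatal ones. Summed endothelial markers were 21.6 to 45.6 CPM in the adult libraries of both kinds, against 255 to 361 CPM in the neonatal ones. Xist was at most 0.569 CPM in the adult libraries, against 437 to 546 CPM in the neonatal ones, and the part of sex and of other cells in these differences was not tested. In MGT cells, 26.1% of genes were called between 3-month and neonatal and 30.6% between 18-month and neonatal cells, and 6 of 8 members were called in each. Fgf2 was higher by 2.26 and 2.13 on the log2 scale at 3 and 18 months, Fgf7 by 1.95 and 1.60, Fgf10 by 5.46 and 5.47 and Fgf18 by 2.04 and 2.87, while Fgfr2 was at -2.09 and -1.58. Fgfr1 was called at 3 months (0.45) and not at 18 months (0.19). In LacZ cells, 30.9% and 35% of genes and again 6 of 8 members were called in each. Fgf2 was higher by 2.01 and 1.84, Fgf7 by 2.31 and 1.92, Fgf10 by 4.59 and 5.46 and Fgf18 by 1.89 and 2.03, and Fgfr2 was at -1.83 and -1.71. Fgf9 was lower in 18-month than in neonatal LacZ cells (-3.63), and in MGT cells its difference of -1.15 was called in 4 of 9 other settings (edgeR or DESeq2 adjusted p up to 0.206), none of them leaving out a library. Fgf21 had 0 counts in the 4 adult MGT libraries and 1 and 1 counts in the neonatal ones.

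Between 18 and 3 months the calls were fewer and less stable. In MGT cells 17.4% of genes and 4 members were called: Fgf18 (log2 0.83) and Fgfr2 (0.52) were higher and Fgf7 (-0.35) and Fgfr1 (-0.26) lower at 18 months, and leaving out single libraries left 0 to 1 of these calls. In LacZ cells 23% of genes and 5 members were called: Fgf10 (0.87) and Fgfr3 (0.94) were higher and Fgf7 (-0.39), Fgf9 (-3.86) and Fgfr1 (-0.43) lower at 18 months. The Fgf7 call there was lost without the second 3-month or first 18-month library (edgeR adjusted p up to 0.109), and that of Fgfr3 without the first 3-month or first 18-month library and with only these 2 groups in the fit (up to 0.214).

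Among the surrounding genes, the 3 tested secreted ligands outside the member list, Fgf23 (log2 1.94), Fgf1 (1.76) and Fgf16 (4.36), all rose with MGT in 3-month cells, where 9 of 9 feedback inhibitors were tested, 5 rose and 2 fell. Their leading genes were Spry1 (-1.29), Dusp6 (0.69), Spred1 (0.40) and Spry2 (-0.35), with a median of 0.32. Of 10 proteoglycans 4 rose and 5 fell, led by Gpc1 (0.76), Sdc3 (-0.54), Sdc4 (-0.48) and Sdc1 (-0.41). Of 9 heparan sulfate enzymes 1 rose, Hs6st1 (1.24), and 2 fell, Hs6st2 (-0.43) and Ndst2 (-0.30). Of 10 ERK targets 3 rose and 2 fell, led by Dusp4 (-0.43), Ccnd1 (0.46), Etv4 (0.53) and Etv1 (-0.64). In neonatal and in 18-month cells 1 of the 3 secreted ligands rose with MGT. Of the feedback inhibitors 1 fell in neonatal cells, and 3 rose and 2 fell at 18 months. Of the proteoglycans 1 rose and 4 fell in neonatal cells, and 1 rose and 2 fell at 18 months. Of the heparan sulfate enzymes 1 rose in neonatal cells, and 2 rose and 2 fell at 18 months. Of the ERK targets 2 fell at 18 months, and in neonatal cells the lowest edgeR adjusted p among them was 0.101, for Myc (log2 -0.26). Over all genes, 4.26%, 8.99% and 8.52% were called higher with MGT in neonatal, 3-month and 18-month cells, and 3.24%, 8.39% and 8.05% lower. Of 9 tested cardiomyocyte markers 7 rose at each age. Of 8 epicardial markers 6 fell with MGT and 1 rose in neonatal cells, with a sum of 338 to 364 CPM, against 678 to 738 CPM with LacZ. At 3 months 4 rose and 1 fell (88.1 to 92.9 CPM with MGT, against 8.70 to 9.26 CPM with LacZ), and at 18 months 3 rose (69.0 to 77.6 CPM, against 13.7 to 14.9 CPM with LacZ); the part of these markers in the member values was not tested.

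Over-expression of Nr4a3 in neonatal fibroblasts went with a fall of 2 of the 8 tested members, the ligand Fgf9 and the receptor Fgfr2, and none rose past the threshold. Over all 15029 genes tested 22.7% were called, 11.9% higher and 10.8% lower. The median log2 fold change of the members was -0.09, against -0.01 over all genes. Nr4a3 itself was at 175 and 178 CPM in OENr4a3 cells, against 2.49 and 1.85 CPM in OECtrl cells (log2 6.35 ± 0.16), as the labels say.

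Fgf9 was at 13.8 and 12.9 CPM in OENr4a3 cells, against 19.7 and 24.9 CPM in OECtrl cells. It fell by 0.74 on the log2 scale (SE 0.15; edgeR adjusted p = 0.012), a call lost without the second OENr4a3 library (adjusted p = 0.0733). Fgfr2 was at 57.7 and 57.9 CPM in OENr4a3 cells, against 79.0 and 70.2 CPM in OECtrl cells (log2 -0.37 ± 0.11; edgeR adjusted p = 0.038), and its call was lost with DESeq2 and without either OENr4a3 library (adjusted p up to 0.368). The summed epicardial and mesothelial markers were 440 to 473 CPM in OENr4a3 cells, against 981 to 1046 CPM in OECtrl cells, 5 of 8 fell and none was at 0. Summed cardiomyocyte markers were 318 to 339 CPM in OENr4a3 cells, against 524 to 594 CPM in OECtrl cells. Macrophage markers were 618 to 641 CPM, against 943 to 960 CPM with OECtrl. Pericyte and smooth muscle markers were higher, at 159.5 to 160.5 CPM, against 91.9 to 117 CPM with OECtrl. The part of these markers in the 2 differences was not tested. Xist was also unequal, at 476 CPM in both OENr4a3 libraries, against 228 and 286 CPM in OECtrl cells. Fgf7 (log2 0.46 ± 0.17; edgeR adjusted p = 0.083) and Fgf10 (-0.66 ± 0.23; adjusted p = 0.065) were not called, although their libraries did not overlap. Fgf2 was at 46.8 and 39.5 CPM in OENr4a3 cells, against 44.8 and 43.9 CPM in OECtrl cells, with a 95% interval of the log2 difference from -0.28 to 0.20. Fgfr1 was at 236 and 233 CPM with OENr4a3, against 223 and 203 CPM with OECtrl (0.14 ± 0.099). Fgf18 and Fgfr3 were not called, and Fgf21 had 1 and 1 counts with OENr4a3, against 2 and 2 with OECtrl, too few to test. The number of members called ran from 0 without the second OENr4a3 library to 4 without the first OECtrl library.

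Knockdown of Nr4a3 in 3-month MGT cells changed 3 of the 9 members, all of which were tested here: the endocrine ligand Fgf21 rose 27.5-fold, and Fgf2 and its receptor Fgfr1 fell. Over all 18045 genes tested 54.5% were called, 27.9% higher and 26.7% lower, and the median log2 fold change was -0.15 over the members and 0.01 over all genes. Nr4a3 was at 0.431 and 0.744 CPM in shNr4a3 cells, against 8.84 and 8.18 CPM in shNT cells (log2 -3.85 ± 0.27). The 3 reprogramming factors were also lower in shNr4a3 cells, with log2 fold changes of -0.56 for Mef2c, -0.37 for Gata4 and -0.37 for Tbx5.

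Fgf21 was at 5.07 and 5.63 CPM in shNr4a3 cells, against 0.199 and 0.185 CPM in shNT cells, that is 212 and 242 counts against 8 and 8. The groups did not overlap (log2 4.78 ± 0.33; edgeR adjusted p = 7.9e-08). Per kilobase, Fgf21 reached 5.63 CPM per kb in shNr4a3 cells, second among the members after Fgfr1 at 10.9 and above Fgf7 at 4.30 and Fgf2 at 4.2, while in shNT cells it stood at 0.202. Its promoter window is the one shown with the C/EBP-ATF match, and the part of that element in the change was not tested. No other bulk group had more than 7 Fgf21 counts in a library, apart from shNT with 8. Klb, the coreceptor it needs, did not pass the filter on low counts.

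Fgf2 was at 26.5 and 30.5 CPM in shNr4a3 cells, against 76.1 and 70.5 CPM in shNT cells, a 2.57-fold lower level (log2 -1.36 ± 0.10; edgeR adjusted p = 1.4e-07). Its antisense partner Nudt6 was lower too, at 8.47 and 10.1 CPM in shNr4a3 cells, against 24.0 and 21.7 CPM in shNT cells (-1.30 ± 0.13). In the other 3 tables Nudt6 was at 0.554 to 1.92 CPM, and the reads of the pair on shared exonic bases cannot be told apart. Fgfr1 was at 110 and 106 CPM in shNr4a3 cells, against 156 and 153 CPM in shNT cells, a 1.44-fold lower level (log2 -0.52 ± 0.079; edgeR adjusted p = 9.9e-05). The Fgf21, Fgf2 and Fgfr1 calls were kept in all 8 other settings, with an adjusted p of up to 4.6e-07, 3.9e-07 and 0.0027.

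The other members were not called. Fgf9 was at 1.65 and 1.51 CPM in shNr4a3 cells, against 0.670 and 0.973 CPM in shNT cells, without overlap (log2 0.94 ± 0.38; edgeR adjusted p = 0.053). Fgf7 was at 15.2 and 12.8 CPM in shNr4a3 cells, against 14.7 and 15.4 CPM in shNT cells, with a 95% interval of the log2 difference from -0.36 to 0.15. Fgfr2 was at 13.95 and 16.7 CPM, against 17.6 and 17.2 CPM in shNT cells (-0.18 ± 0.13), and Fgfr3 at 4.12 and 4.74 CPM, against 3.72 and 2.76 CPM in shNT cells (0.45 ± 0.23). Fgf10 (-1.03 ± 0.65) had 8 and 14 counts in shNr4a3 cells, against 26 and 18 in shNT cells. Fgf18 was at 1.68 and 1.12 CPM in shNr4a3 cells, against 1.29 and 1.81 CPM in shNT cells, and the groups overlapped.

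**Figure D3:**
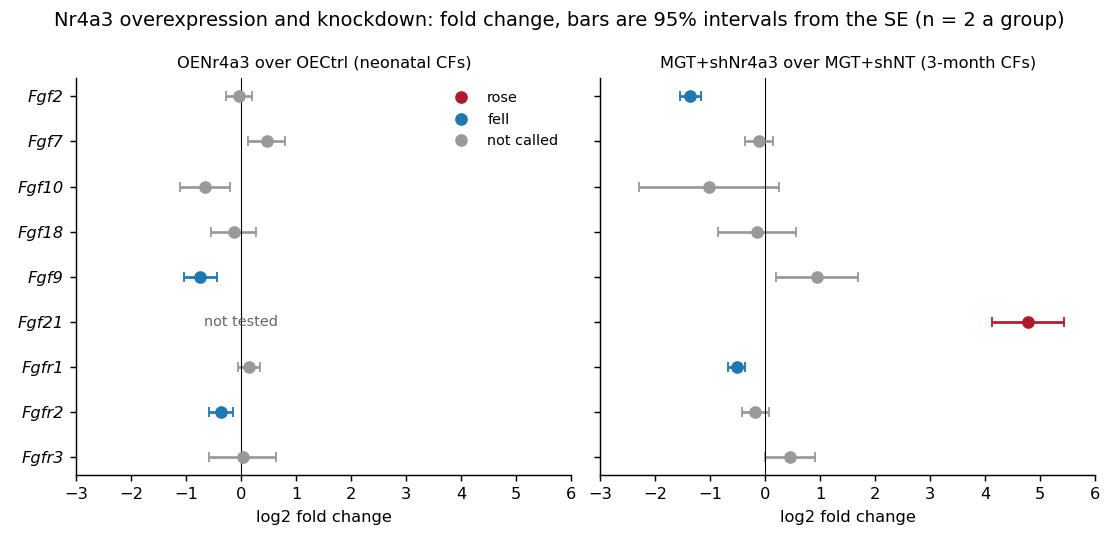
Log2 fold changes of the 9 members with Nr4a3 over-expression against its control (left panel, Fgf21 not tested) and with Nr4a3 knockdown against the non-targeting hairpin (right panel); bars are 95% intervals from the standard error (n = 2 per group), red marks a call as higher, blue as lower and grey no call. Fgf21 stands at 4.78 with knockdown, Fgf2 at -1.36 and Fgfr1 at -0.52, and with over-expression Fgf9 (-0.74) and Fgfr2 (-0.37) are the called members.

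Several feedback inhibitors of FGF signalling were lower beside Fgf2 and Fgfr1 in the knockdown, where 27.9% of all genes were called higher and 26.7% lower. Of 9 tested, 6 fell and 1 rose, led by Spred1 (log2 -1.71), Spry2 (-1.19), Spred3 (-1.35) and Il17rd (-1.2), with a median of -0.71, and the one that rose was Spry1 (0.62). ERK targets went both ways, with 5 of 10 up and 4 down, led by Egr1 (-1.65), Fosl1 (-1.09), Etv1 (1.19) and Phlda1 (-0.69). Of 10 proteoglycans 5 rose and 1 fell: Gpc3 (5.34), Gpc4 (1.81) and Gpc1 (1.2) were among those that rose, and Sdc4 (-1.45) fell. Of 9 heparan sulfate enzymes 7 rose, among them Sulf2 (2.03), Hs6st2 (1.87) and Ext1 (0.94), and Sulf1 (-2.10) fell, with a median of 0.62. Of 15 adaptors and transducers 6 rose and 7 fell, and the other receptors Fgfr4 and Fgfrl1 both fell. With over-expression, 4 proteoglycans rose and 2 fell, led by Sdc4 (-0.82), Gpc6 (1.67) and Sdc3 (0.63), and 3 feedback inhibitors rose and 2 fell, led by Dusp6 (-0.67), Cbl (0.83) and Spred2 (0.64). Of all genes, 11.9% were called higher and 10.8% lower with over-expression. Beside the knockdown values, summed fibroblast markers were 3793 to 4023 CPM in shNr4a3 cells, against 5195 to 5341 CPM in shNT cells, with 5 of 8 lower, and summed cardiomyocyte markers 6728 to 7595 CPM, against 10724 to 12440 CPM in shNT cells, with 5 of 10 higher and 1 lower; no marker of either list was at 0, and their part in the member values was not tested.

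In single MGT-treated cells, the 24-month library had more Fgf2, Fgf7, Fgf10, Fgf18 and Fgfr1 RNA than the neonatal library and less Fgf9 and Fgfr2. One library per age gives no test, and the exact Poisson 95% intervals given here cover counting error only. After filtering, 5773 cells of the 24-month library and 3828 of the neonatal library were kept, with a median of 20771 and 13960 transcripts counted per cell, and 11 cell barcodes were shared. Doublets were not removed. Counts were summed over the kept cells and scaled to CPM, and a gene is called past 2-fold only with at least 50 counts over both libraries.

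Fgf2 was at 86.6 CPM in 24-month and 28.4 CPM in neonatal cells, a ratio of 3.05 (2.94 to 3.17). Fgf7 was at 35.0 CPM in 24-month and 10.7 CPM in neonatal cells (ratio 3.27, 3.08 to 3.47), Fgf10 at 1.40 and 0.236 CPM (5.94, 4.02 to 9.08) and Fgf18 at 7.99 and 2.62 CPM (3.05, 2.69 to 3.46). Fgf9 was lower in 24-month cells at 6.75 CPM, against 14.4 CPM in neonatal cells (0.468, 0.433 to 0.505). Fgf21 was low in both, with 86 counts in 24-month and 56 in neonatal cells (1.24, 0.877 to 1.77). Fgfr1 was at 189 CPM in 24-month and 103 CPM in neonatal cells (1.84, 1.80 to 1.88), Fgfr2 at 3.79 and 16.0 CPM (0.238, 0.216 to 0.261) and Fgfr3 at 0.935 and 3.05 CPM (0.307, 0.251 to 0.373). Past 2-fold were 7 of the 9 members: 4 ligands higher, and Fgf9, Fgfr2 and Fgfr3 lower. Of all 15060 genes with that many counts 19.3% were past 2-fold, 9.49% higher and 9.83% lower.

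The kept cells fell into 12 clusters. The fibroblast-like cells of the 24-month library were in clusters 0, 1 and 2 (1485, 88 and 1375 cells) and nearly all those of the neonatal library in cluster 5 (893 cells). Cluster 4 was macrophage-like (712 cells of 24 months, 201 neonatal), and 2085 cells of 24 months and 2645 neonatal cells stayed unnamed. Among the unnamed ones, cluster 10 held 928 neonatal cells with Myh6, Ttn and Csrp3 as leading genes, and 8 of 10 cardiomyocyte and 6 of 8 fibroblast markers were detected in it. These names were rebuilt from marker lists, so they may differ from those of the study.

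Most counts of the members came from the fibroblast-like cells and cluster 10, which were sequenced deeply per cell. By level, some unnamed 24-month clusters also held them. Cluster 3 (1720 cells) had Fgf2 at 81.5, Fgf7 at 22.5 and Fgfr1 at 40.0 CPM, and cluster 6 (91 cells) had 64.7, 25.8 and 157 CPM. Fgf2 was at 103 CPM (101 to 105) in cluster 0 and 92.5 CPM in cluster 2 of 24-month cells, and at 27.7 CPM (26.4 to 29.1) in cluster 5 and 34.5 CPM in cluster 10 of neonatal cells. In macrophage-like cells Fgf2 was at 3.88 CPM at 24 months and 3.77 CPM in the neonatal library. Fgfr1 was at 222 and 212 CPM in clusters 0 and 2 of 24-month cells, 99.1 and 132 CPM in clusters 5 and 10 of neonatal cells, and 9.83 and 18.7 CPM in 24-month and neonatal macrophage-like cells. Fgf7 was at 39.1 and 42.4 CPM in clusters 0 and 2 of 24-month cells and differed between the neonatal clusters, with 6.62 CPM in cluster 5 and 18.1 CPM in cluster 10. Fgfr2 was at 4.71 and 3.70 CPM in clusters 0 and 2 of 24-month cells, and at 20.5 and 14.3 CPM in clusters 5 and 10 of neonatal cells. Fgf9 was at 6.98 and 8.94 CPM in those 24-month clusters, and at 14.2 and 17.9 CPM in those neonatal clusters. In unnamed cluster 7 (median 4648 transcripts per cell) Fgfr1 was at 306 CPM (275 to 340) in 24-month and 112 CPM in neonatal cells. Fgf9 was there at 9.46 CPM in 24-month cells and at 39.1 CPM (24.2 to 59.8), from 21 counts, in neonatal cells. Fgf10 was at 1.94 CPM (1.63 to 2.28) in cluster 0 and 1.11 CPM (0.830 to 1.46) in cluster 2 of 24-month cells, and at 2.47 CPM (1.32 to 4.23) from 13 counts in the unnamed 24-month cluster 3, whose median was 1731 transcripts per cell. Cluster 0 held 69 of the 86 Fgf21 counts of the 24-month library. Fgf18 was at 8.96 and 10.3 CPM in clusters 0 and 2 of 24-month cells and at 2.67 CPM in neonatal cluster 5, and endothelial-like neonatal cells had 9.98 CPM from 22 counts (6.25 to 15.1).

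For Fgfr3 the direction depended on which neonatal cells were counted. It was at 0.982 and 1.03 CPM in 24-month clusters 0 and 2 and at 0.590 CPM (0.413 to 0.816) in neonatal cluster 5, while neonatal cluster 10 held 314 of the 374 neonatal counts, at 6.85 CPM (6.11 to 7.65). Within fibroblast-like cells alone, Fgfr3 was at 1.02 CPM in 24-month and 0.60 CPM in neonatal cells, a ratio of 1.70 (1.17 to 2.53), opposite in direction to the ratio over all kept cells. That class leaves out cluster 10; over all clusters with 75% or more of the fibroblast markers detected, a grouping chosen after seeing the data that holds cluster 10, the Fgfr3 ratio was 0.319 (0.260 to 0.389). For 7 other members the ratio kept its direction in fibroblast-like cells: it was 3.46 for Fgf2, 5.87 for Fgf7, 3.86 for Fgf10, 3.48 for Fgf18, 2.17 for Fgfr1, 0.538 for Fgf9 and 0.214 for Fgfr2. There Fgfr1 was past 2-fold, which it was not over all kept cells, and Fgf9 no longer was. The Fgf21 ratio was 1.02 (0.690 to 1.54), and its interval included 1 over fibroblast-like and over all kept cells.

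**Figure D4:**
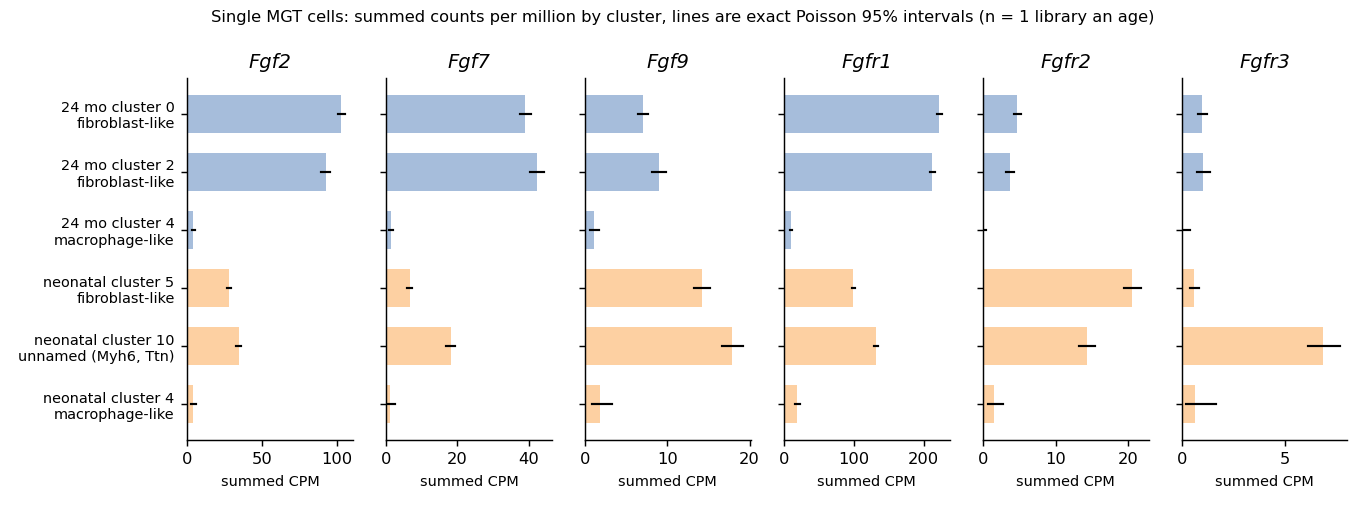
Summed level in CPM of Fgf2, Fgf7, Fgf9, Fgfr1, Fgfr2 and Fgfr3 in clusters of single MGT-treated cells, with 24-month clusters 0, 2 and 4 above neonatal clusters 5, 10 and 4; bars are exact Poisson 95% intervals. Among the clusters drawn, Fgfr3 peaks in neonatal cluster 10 at 6.85 CPM. Of those drawn from each library, the macrophage-like cluster 4 is lowest for all 6 genes, except for Fgfr3 in neonatal cells. There the intervals of clusters 4 and 5 overlap.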

How the data were processed

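Whole-number read counts per gene were deposited by the authors in 4 tables, with duplicate libraries per group; featureCounts of Subread 1.5.1, Trimmomatic 0.36 and the mm10 build are named per the submitters' processing notes, which give no strand setting for the counting. Both rRNA depletion and poly(A) selection appear in the labels. Single-cell counts per barcode were deposited as 10x matrices; the aligner of these is not given in the sources used here. Columns were matched to samples by name. The 13m and 15m columns were read as the 12-month and 18-month groups, which have no other column, GFP as OECtrl and D3 as MGT. Another 4 columns, of neonatal knockdown cells, match no sample and were not used. The matrix names neo and aged were matched to the titles of the 2 single-cell samples. The over-expression titles say day 10 and the design text day 7.

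Each table was fitted on its own with edgeR 4.0.16 in R 4.3.3 (filterByExpr, TMM factors, 1 coefficient per group, no covariate, robust quasi-likelihood test), with Benjamini-Hochberg adjustment over all tested genes and a threshold of 0.05. Bulk CPM values use the TMM library sizes, apart from those of Xist, which use total counts. Levels per kilobase divide the TMM-based values by the deposited exonic length. The standard error is the log2 fold change divided by the square root of F. The fits were tried on simulated data with large planted changes in well-counted genes only, which does not cover small changes or genes with low counts. Alternatives were DESeq2 1.42.0, edgeR with median-of-ratios size factors, no filter on low counts, the replicate number as a block, only the groups compared, and each library left out in turn. For a gene at 0 in a group, the ratio of the other group to a floor of 3 counts is given, without the counting error of that other group.

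Cells were kept from 500 detected genes upwards and up to a mitochondrial share of 20%, and clustered with scanpy 1.11.5 (2000 variable genes, 50 components, 15 neighbours, Leiden resolution 0.5). The naming rule was set during the analysis. A cluster took the name of a list with at least 3 markers detected, each in 25% or more of the cells, and a median log2 difference from the other cells of at least 2, unless another list had 75% or more detected. It was named fibroblast-like where no list met this, 75% or more of the fibroblast markers were detected and no other list with 75% detected had a median of at least 1. Clusters with a median count per cell under 33.3% of their library's and no such marker among their top 10 genes stayed unnamed. Clusters 6, 10 and 7, with 8, 6 and 6 of 8 fibroblast markers detected, thus stayed unnamed: cluster 6 for its macrophage and cluster 10 for its cardiomyocyte markers, cluster 7 for its depth. Intervals are exact at 95%. Cells were not thinned to a common depth, and shares of positive cells are not used.

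The members and the surrounding gene lists were chosen with earlier results of these data known. All members are named, and in each surrounding list the up to 4 tested genes with the smallest p-values. Gene positions and overlaps are from GENCODE vM21 (GRCm38) and promoter windows from RefSeq.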

Additional observations from a re-analysis of the deposited data

Results flagged for a closer look

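The MGT effect on 2 ligands differed between 18-month and 3-month cells by the test of the difference itself. For Fgf9 the log2 fold change of MGT over LacZ cells was 3.16 at 18 months and -0.01 at 3 months, and the difference was 3.16 ± 0.84 (edgeR adjusted p = 0.043). It rests on 20 and 16 counts in 18-month MGT cells, against 3 and 1 counts in LacZ cells, and on 3-month LacZ libraries that differed from each other at 14 and 48 counts. For Fgf10 the log2 fold change of MGT over LacZ cells was -0.05 at 18 months and 0.82 at 3 months, and the difference was -0.86 ± 0.18 (edgeR adjusted p = 0.0066), with 407 and 430 counts in 18-month MGT cells, against 438 and 462 in LacZ cells.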

How the results depend on the processing

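Of 89 member calls, 69 were past the threshold in every setting tried, and of 72 member results not called, 7 were past it in at least 1 setting. DESeq2 called 2 members in place of 5 between 12- and 3-month fibroblasts, 2 in place of 4 between 18- and 3-month MGT cells and 1 in place of 2 with Nr4a3 over-expression. With each library left out in turn, the members called were 3 to 4 (5 with all) between 12 and 3 months and 2 to 5 (5 with all) between 24 and 12 months in untreated fibroblasts, 3 to 5 (5 with all) for MGT against LacZ at 18 months, 0 to 1 (4 with all) between 18 and 3 months in MGT cells and 3 to 5 (5 with all) in LacZ cells, 0 to 1 (0 with all) for the difference of the MGT effect between 3 months and neonatal, 1 to 2 (2 with all) for that between 18 and 3 months, and 0 to 4 (2 with all) with over-expression. The cause was not tested. With a replicate block the MGT effect differed between 18 and 3 months for 1 member in place of 2, and other member counts with the block were within 1.5 times; replicate numbers gave correlations of -0.194 to 0.207 over 23 pairs of groups and do not establish pairs. In single cells, the Fgfr3 ratio was 1.70 in fibroblast-like clusters only, which leave out cluster 10, 0.319 with every cluster that detects 75% of the fibroblast markers (chosen after seeing the data), and 0.307 over all kept cells.

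Counts over all genes moved by over 1.5 times with only the groups compared in the fit: 1977 in place of 1229 for MGT against LacZ in neonatal cells, 1798 in place of 2846 at 3 months and 2116 in place of 3769 between 18- and 3-month LacZ cells. With single libraries left out they were 688 to 1037 (1229 with all), 1732 to 4476 (2846) and 1452 to 2136 (2713) for MGT against LacZ in neonatal, 3-month and 18-month cells, highest without the first 3-month LacZ library. For the difference of the MGT effect they were 363 to 1760 (605) between 3 months and neonatal, 241 to 372 (461) between 18 months and neonatal, and 159 without the first 18-month LacZ library to 1012 without the second 3-month LacZ library (383) between 18 and 3 months. Between ages they reached 1872 without the second 12-month library (3110) for 24 against 12 months in untreated fibroblasts, 1367 and 2758 without the second 3-month MGT library in MGT cells for 18 against 3 months (2850) and 3 months against neonatal (4264), and 2166 without the first 18-month LacZ library (3769) in LacZ cells for 18 against 3 months. With over-expression 7704 genes were called without the first OECtrl library, 1303 and 1197 without the first and second OENr4a3 library, and 3410 with all. No normalisation moved the median by over 0.1. Low counts limit Fgf21, and in some groups also Fgf9, Fgf10, Fgf18 and Fgfr3, and 3 counts over a group is the floor. Fgf18 had 31 and 14 counts in untreated neonatal libraries and 13 and 11 in neonatal MGT cells. Fgfr3 had 17 and 32 counts in 3-month LacZ cells.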

Other observations

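As a description across libraries, the genes whose levels followed each member most closely were ranked by the mean of their correlations over the 8 libraries of untreated fibroblasts and the 12 MGT and LacZ libraries, which share the split between neonatal and adult cells. Among 9148 genes above a minimum level, Fgf2 was closest to Timp1 (mean r 0.989) and Ptges (0.987), and Fgf7 to Pf4 (0.988), Prrx1 (0.987) and Errfi1 (0.986). Fgf18 was closest to P2rx7 (0.975), Fgfr1 to Nfkb1 (0.975) and Fgfr2 to the Notch ligand Jag1 (0.975). Fgfr3 had no gene as close, with Sap18 first at 0.882, Igfbp5 at 0.853 and Itgbl1 at 0.841. Fgf9, Fgf10 and Fgf21 were under the minimum level.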
